A study of Homo sapiens with 18 samples.

Results

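The genes described here encode the proteins of the cytoplasmic ribosome. They are the 83 protein-coding genes among 20329 in the count files whose symbols are RPL, RPS or RPLP with a number, or RPSA. The same start of name is shared by 10 genes of the RPS6K kinase family, 3 read-through genes and RPS19BP1. It is also shared by 3 paralogs of ribosomal protein genes with names that end in L1 (RPL7L1, RPL22L1 and RPL26L1). All of these were left out. Of the 83 genes, 31 encode proteins of the small (40S) subunit, 43 proteins of the large (60S) subunit and 3 the stalk of the large subunit. The other 6 are extra copies: RPL3L, RPL10L, RPL36AL, RPL39L, RPS27L and 1 gene on chromosome Y.

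RNA was measured in HAP1 cells, a near-haploid human line that grows attached and was derived from a leukaemia line. There were 6 groups of 3 samples. These were wild-type control A, ΔWAPL clone 3.3, ΔSCC4, the double knockout ΔWAPL/ΔSCC4, wild-type control B and ΔWAPL clone 1.14. WAPL releases cohesin from DNA, and SCC4, encoded by MAU2, is part of the complex that loads it. The knockouts were made with CRISPR by insertion of a drug resistance cassette, blasticidin for WAPL and puromycin for SCC4, and the double knockout was made from ΔWAPL cells, clone 3.3 by its label. Control A, ΔWAPL 3.3, ΔSCC4 and ΔWAPL/ΔSCC4 are called set A here, and control B and ΔWAPL 1.14 set B. Each knockout is a clone, so a genotype and its clone cannot be told apart except where both ΔWAPL clones were used. The total count per sample was between 10007646 and 20711127. The labels do not say whether replicates were separate cultures, so p-values measure the spread between these samples.

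A ribosome reads mRNA with its small subunit and joins amino acids in its large subunit. Nearly every ribosomal protein is needed in 1 copy per ribosome, except for the stalk proteins, and their genes are among the most actively transcribed in growing cells. Their mRNAs usually begin with a run of pyrimidines, the TOP motif, by which the translation of all of them is controlled together. A few have second gene copies that are used in particular tissues, such as RPL3L in muscle and RPL10L in testis.

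The start of the transcript is the sequence that most ribosomal protein genes share beyond their products. A promoter was found for 66 of the 83 genes in RefSeq (GRCh38.p14). An unbroken run of at least 8 C or T on the gene's strand, between 10 bases before and 20 bases after the annotated start, was present in 51 of the 66 promoters (77.27%), against 12.61% of 15843 protein-coding promoters. It was present in 21 of 24 promoters of 40S genes, 25 of 35 of 60S genes, 3 of 3 of stalk genes and 2 of 4 of extra copies. The median longest run was 11 bases in ribosomal protein genes and 4 bases in all promoters. The 30-base windows below belong to genes whose values are described further on. They show the range from a long run to none, with the longest pyrimidine run in capitals, 5′ to 3′ on the gene's strand.
RPL13A: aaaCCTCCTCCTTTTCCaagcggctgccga
RPL36AL: TCTTCCCTTTCCTgttaggcgagagctgcg
RPL4: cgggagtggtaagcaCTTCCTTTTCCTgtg
RPL38: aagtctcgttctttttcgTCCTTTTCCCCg
RPS27: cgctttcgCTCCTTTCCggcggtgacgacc
RPS28: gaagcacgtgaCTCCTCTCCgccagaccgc
RPS3A: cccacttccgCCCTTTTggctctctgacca
RPS4X: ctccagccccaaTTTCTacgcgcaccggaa
RPL15: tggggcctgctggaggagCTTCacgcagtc
RPS27L: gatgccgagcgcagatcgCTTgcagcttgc

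These windows lie on chromosome 19 (chr19:49487598-49487627, plus strand) for RPL13A, chr14:49620607-49620636 (minus) for RPL36AL, chr15:66504836-66504865 (minus) for RPL4, chr17:74203668-74203697 (plus) for RPL38 and chr1:153990752-153990781 (plus) for RPS27. The others are chr19:8321486-8321515 (plus) for RPS28, chr4:151099618-151099647 (plus) for RPS3A, chrX:72277229-72277258 (minus) for RPS4X, chr3:23916535-23916564 (plus) for RPL15 and chr15:63157458-63157487 (minus) for RPS27L. RPL13A had a run of 14 bases across the annotated start and RPS27L none longer than 3 bases, while RPS27, the gene RPS27L resembles, had 9. The starts are those of the annotation, and transcription starts were not measured here. In the promoters from 250 bases before to 50 bases after the start, on both strands, the ETS motif CCGGAAG was found in 33.33% of ribosomal protein genes and 14.23% of all promoters, and the YY1 core AAGATGG in 12.12% and 6.4%. The E-box CACGTG was found in 4.55% and 8.88%, and the TATA motif TATAAA in 9.09% and 9.63%.

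The knocked-out genes were low where the labels say so. WAPL had a mean of 99.2 CPM (counts relative to library size, scaled by TMM, the trimmed mean of M-values) in control A, 43.7 in ΔWAPL 3.3, 85.2 in ΔSCC4, 45.5 in ΔWAPL/ΔSCC4, 120.6 in control B and 41.3 in ΔWAPL 1.14 (n = 3 each). MAU2 had 65.6, 56.1, 0.702, 0.934, 60.5 and 64.1 CPM in the same order. Of 7 blood lineage genes none exceeded 0.261 CPM in any sample, with SPI1, CD3E and MPO at 0. Of 3 genes of adherent cells, VIM, which encodes vimentin, had means of 586.5 CPM in control A, 440.3 in ΔWAPL 3.3, 544.8 in ΔSCC4, 254.4 in ΔWAPL/ΔSCC4, 485.7 in control B and 362.2 in ΔWAPL 1.14. ACTB, which encodes actin, had 3836, 3019, 3458, 3567, 4266 and 3286 CPM in the same order. CTNNB1, the third, had 466.7, 494.9, 455.3, 439.3, 498 and 506.6 CPM, on average higher in both ΔWAPL clones than in their controls. In ΔWAPL 1.14 and over both clones 2 of the 3 genes were called lower, where 11.4% and 9.13% of all genes were. In ΔWAPL/ΔSCC4 1 was called lower against control A and 1 against ΔWAPL 3.3, where 3.3% and 4.55% of all genes were. Their part in the results was not tested.

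The 83 genes took between 5.4% and 7.657% of all counts in a sample. In these bulk libraries fewer cells of a kind and less RNA per cell cannot be told apart. Of the 83 genes, 79 passed the filter on low counts (edgeR's filterByExpr). The level per length, in CPM per kb of mean transcript length over all samples, was highest for RPL4 (3989), RPL3 (2599), RPS18 (2196), RPL8 (2004) and RPL7A (1933). The order depends on the length used. Per kb of all exons joined (exon union), these genes ranked 6, 12, 2, 5 and 4 in the same order, and another member was first. The stalk genes RPLP0, RPLP1 and RPLP2, which recruit translation factors to the ribosome, had 1893, 1760 and 1124 CPM per kb. RPL5 and RPL11, which bind 5S rRNA and can also bind MDM2, had 1674 and 1129. RPL10, RPS6 and RPS19, the last of which is mutated in Diamond-Blackfan anaemia, had 1672, 1666 and 1516. RPSA, also known as the laminin receptor precursor, had 708 and RPL21, RPS27 and RPL41 had 828, 645 and 586.

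**Figure D1:**
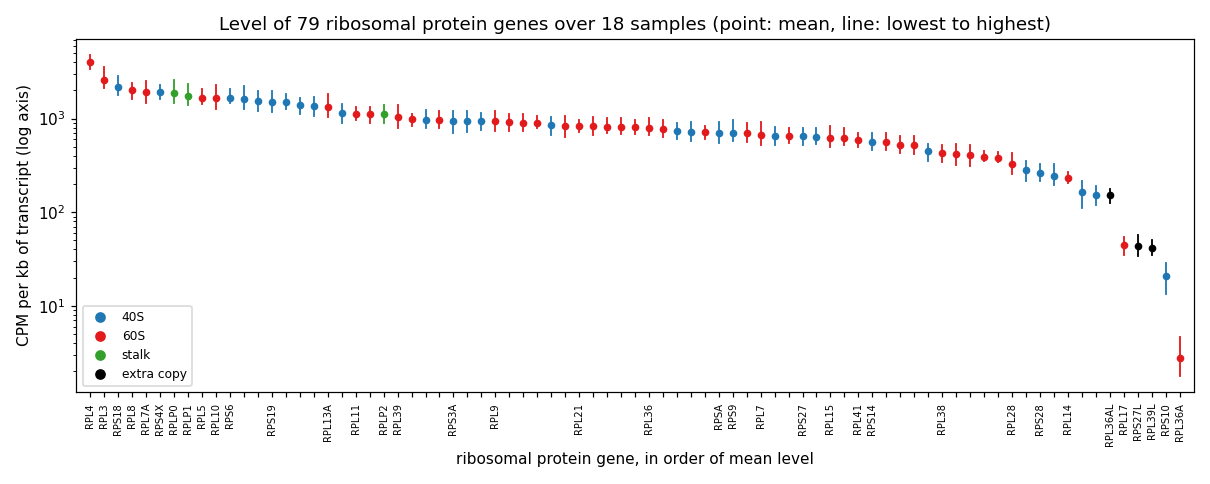
Level of the 79 ribosomal protein genes that passed the filter, in CPM per kb of transcript on a log axis, ordered by mean, with most of the genes named in the text labelled. Points are means over 18 samples and lines run from the lowest to the highest sample, coloured by subunit. Most genes lie in a continuous range below RPL4 at 3989, and RPL17, RPS27L, RPL39L, RPS10 and RPL36A lie apart at the low end.

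Extra copies were not all below the genes they resemble. RPL39L had 41.7 CPM per kb against 1041 for RPL39, and RPS27L had 43.3 against 645 for RPS27. RPL36AL had 152.8 CPM per kb, above RPL36A at 2.75, but reads of RPL36A were partly shared with the read-through gene RPL36A-HNRNPH2, which covers 8.4% of its exons, and only 50.8% of its 50-base windows occur once in the genome. RPL3L and RPL10L were at or near 0, with means of 0.0912 and 0.0076 CPM. RPL17 and RPS10 had 44.2 and 21 CPM per kb. Only 12.04% and 5.38% of their windows occur once in the genome, and RPL17-C18orf32 and RPS10-NUDT3 overlap 24.9% and 31.5% of the exons of RPL17 and RPS10. Reads that aligned to several places were not counted in these files and were 14.3% to 16.1% of reads. The share of windows that occur once was as low in members with high levels, at 0% for RPL21, 1.83% for RPS3A, 4.95% for RPS27 and 6.16% for RPL39. Levels of all these genes are therefore uncertain, and the part of shared sequence in them was not tested.

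The ribosomal protein genes moved together from sample to sample. For each gene, the deviation is its log2 CPM in a sample minus its mean over the 18 samples. The median deviation over 79 genes was 0.22, 0.22 and -0.06 in the 3 samples of control A, 0.04, 0.01 and 0.13 in ΔWAPL 3.3, and 0.28, 0.23 and 0.07 in ΔSCC4. It was -0.04, -0.20 and -0.05 in ΔWAPL/ΔSCC4, -0.07, 0.08 and -0.15 in control B, and -0.23, -0.13 and -0.24 in ΔWAPL 1.14. The lowest sample of control A was below every sample of ΔWAPL 3.3, whereas the other two were above them. In control A, 75, 71 and 15 of the 79 genes were above their own mean.

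The median correlation between 2 of the 79 genes over the 18 samples was 0.793 (3081 pairs), and 0.76 after the mean of each group was subtracted. With the median of all the others, 60 of the 79 genes had a correlation above 0.8. RPS18 (0.987), RPL9 (0.982) and RPS14 (0.981) were the most like the rest, and RPL36A (-0.07), RPL14 (0.09), RPL17 (0.14) and RPL39L (0.33) the least. These are descriptions, since the 18 points share the normalization and the library gradients given next. Deviations of all other genes correlated with their GC content (Spearman) between -0.55 and 0.53 in single samples, and with transcript length between -0.31 and 0.32. In control A these correlations with GC were 0.523, -0.139 and -0.498. Among the 79 ribosomal protein genes the correlation of deviation with GC lay between -0.72 and 0.5, both extremes in set A samples (the third control A sample and the first ΔSCC4 sample). The part of library composition in the shared movement was not tested, other than by the offset for GC and length given beside the results.

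**Figure D2:**
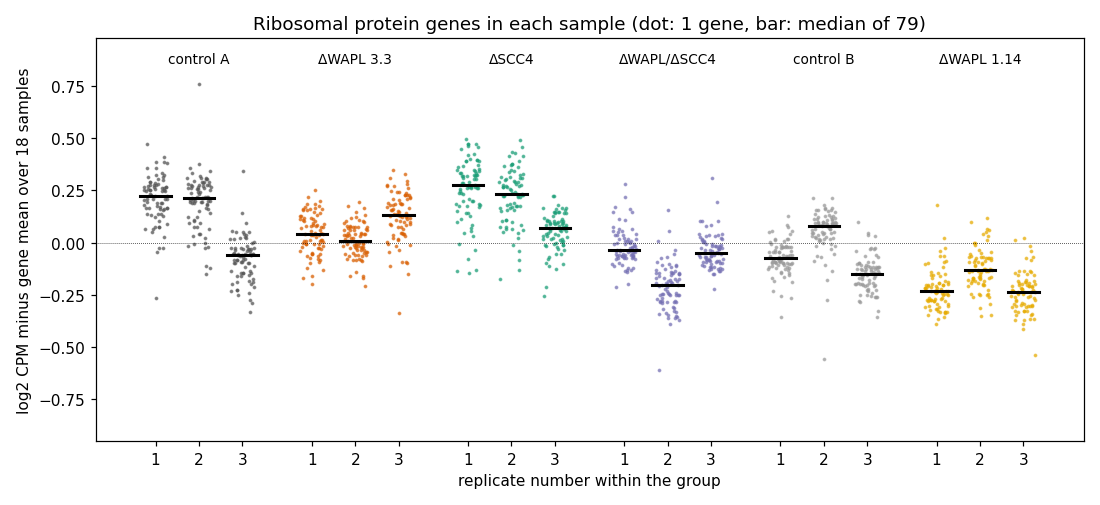
Deviation of each of 79 ribosomal protein genes (dots) in each of 18 samples, as log2 CPM minus the gene's mean over all samples, grouped by genotype with replicate numbers on the x axis. Bars are medians, which ran from -0.24 in ΔWAPL 1.14 to 0.28 in ΔSCC4. Their group means ran from -0.20 in ΔWAPL 1.14 to 0.19 in ΔSCC4, and 70.47% of their variation lay between groups. Samples of control A, the group with the largest SD (0.16), ran from -0.06 to 0.22.

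Loss of WAPL was compared with control in 2 clones, to ask how transcription responds when cohesin is not released. In ΔWAPL 3.3 against control A, no ribosomal protein gene passed the edgeR quasi-likelihood test at a Benjamini-Hochberg adjusted p of 0.05, where 8.07% of 12489 genes tested passed in either direction. None had an unadjusted p under 0.05 and DESeq2 also called 0. The median log2 fold change was -0.07, against 0.00 for all genes tested, with 18 of 79 above 0. The groups did not overlap, with ΔWAPL lower, for 2 of 79 genes, against 11.9% of all genes. RPL3 (-0.18, SE 0.14), RPL10 (-0.24, SE 0.15) and RPS6 (-0.13, SE 0.13), a target of the kinases S6K, had SEs of a size with their differences.

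In ΔWAPL 1.14 against control B, 4 ribosomal protein genes fell and none rose. This was 4 of 79, against 11.4% of 12636 genes called lower. The genes were RPS3A, RPL36AL, RPL38 and RPL7. RPS3A, a 40S protein at the subunit's platform, had 676.9, 768.8 and 647.5 CPM in control B and 549.2, 579.4 and 540.6 in ΔWAPL 1.14. Every knockout sample was below every control. Its log2 fold change was -0.33 (SE 0.07, edgeR adjusted p = 0.0204). RPL36AL had 102.4, 96.5 and 110.03 CPM in control B and 85.03, 89.9 and 83.8 in ΔWAPL 1.14 (log2 fold change -0.26, SE 0.06, edgeR adjusted p = 0.0282). RPL38 had 319.6, 342.7 and 299.8 CPM against 262.4, 282.7 and 262.2, and RPL7 516.6, 524.1 and 531.3 against 455.02, 480.05 and 466.7. Their log2 fold changes were -0.26 and -0.17. In all 4 the 2 groups did not overlap. Of RPS3A's windows only 1.83% and of RPL7's only 33.7% occur once in the genome, so reads of their many processed pseudogenes can bear on these counts.

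The other ribosomal protein genes were spread on the same side. The median log2 fold change of the 79 genes in ΔWAPL 1.14 was -0.16, with 3 above 0, and 28 had an unadjusted p under 0.05, all lower. The share of all genes under an unadjusted p of 0.05 was not counted, in this comparison or the others. The medians were -0.17 for 40S genes, -0.15 for 60S genes and -0.17 for the stalk. Groups did not overlap, with the knockout lower, for 27 of 79 genes, against 22.8% of all genes tested. RPS19 had -0.05 (SE 0.08) and RPL21 -0.03 (SE 0.07). With an offset per sample for GC content and length the median was -0.04 and 9 genes passed, of which 8 were lower and RPS19 higher (0.12, adjusted p = 0.0275), where 15.5% of all genes were lower and 12.8% higher. With the replicate block 28 genes were called lower, against 12.8% of all genes. Same-numbered samples of control B and ΔWAPL 1.14 had correlations of 0.049, 0.319 and 0.196 over genes, each as its deviation from its group's mean. Their mean was 0.188, and that between control A and ΔSCC4 was 0.469. Samples of other numbers give no separate comparison, because such deviations cancel out over the samples of a group. Whether the numbers pair the samples of set B was not tested. RPS3A and RPL36AL were among the 8 genes lower with the offset, and RPL38 and RPL7 were not. Without the third control B sample 48 genes were called lower, where 18.5% of all genes were. Without the first control B sample, the first ΔWAPL 1.14 sample or the third ΔWAPL 1.14 sample none was. In these fits 6.6%, 6.47% and 6.79% of all genes were called lower. Without the second ΔWAPL 1.14 sample 2 members were, against 7.57% of all genes. Without the second control B sample 5 members were, against 11%.

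Over both clones with the set of samples as a covariate, RPS3A, RPS4X, RPL15 and RPL4 fell and none rose, 4 of 79 against 9.13% of 12786 genes called lower. The median was -0.10. RPS4X, the 40S protein encoded on the X chromosome, had 2202, 2242 and 1853 CPM in control A, 1952, 1606 and 1672 in ΔWAPL 3.3, 1780, 1978 and 1702 in control B, and 1575, 1690 and 1581 in ΔWAPL 1.14. Both ΔWAPL clones were on average lower than their controls, with 1 of 3 samples of clone 3.3 within the range of control A. RPL15 had 893.7, 900.5 and 784.8 CPM in control A and 734.03, 729.4 and 765.3 in ΔWAPL 3.3, then 731.9, 820.4 and 713.6 in control B and 636, 675.4 and 628.9 in ΔWAPL 1.14, with no overlap in either set. RPL4, the member with the highest mean CPM, had 4747, 4643 and 3843 CPM in control A, 4022, 3700 and 3830 in ΔWAPL 3.3, 3854, 4406 and 3680 in control B, and 3334, 3558 and 3335 in ΔWAPL 1.14. Its groups overlapped in set A and not in set B. The log2 fold changes were -0.24 for RPS3A (SE 0.07, edgeR adjusted p = 0.0176), -0.22 for RPS4X (SE 0.07, adjusted p = 0.039), -0.22 for RPL15 (SE 0.06, adjusted p = 0.0154) and -0.21 for RPL4 (SE 0.06, adjusted p = 0.035). All 4 passed with the GC and length offset too. With the replicate block RPL4 passed (adjusted p = 0.049), and RPS3A, RPS4X and RPL15 had adjusted p of 0.0531, 0.0541 and 0.0564. Without the third control A sample 21 members were called lower, against 11.2% of all genes. The number was 1 without the second control A sample, the first ΔWAPL 1.14 sample or the third ΔWAPL 1.14 sample. It was 2 without the first control A sample, the second or the third ΔWAPL 3.3 sample, or the first or the second control B sample. Without the second ΔWAPL 1.14 sample it was 3, without the first ΔWAPL 3.3 sample 4, and without the third control B sample 5. In all fits but the one with 21, between 7.48% and 9.63% of all genes were called lower. The same samples enter this test and those of the single clones.

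The clones were also compared with each other through an interaction term, as the change in clone 3.3 minus that in clone 1.14. No ribosomal protein gene passed, where 2.65% of 12786 genes did. By edgeR 1 gene had an unadjusted p under 0.05, and DESeq2 called 0. The median difference was 0.10, with 69 of 79 above 0, and -0.03 with the GC and length offset. RPL36A, with 1.4 to 3.7 CPM, had the largest difference (-0.80), and it did not pass.

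**Figure D3:**
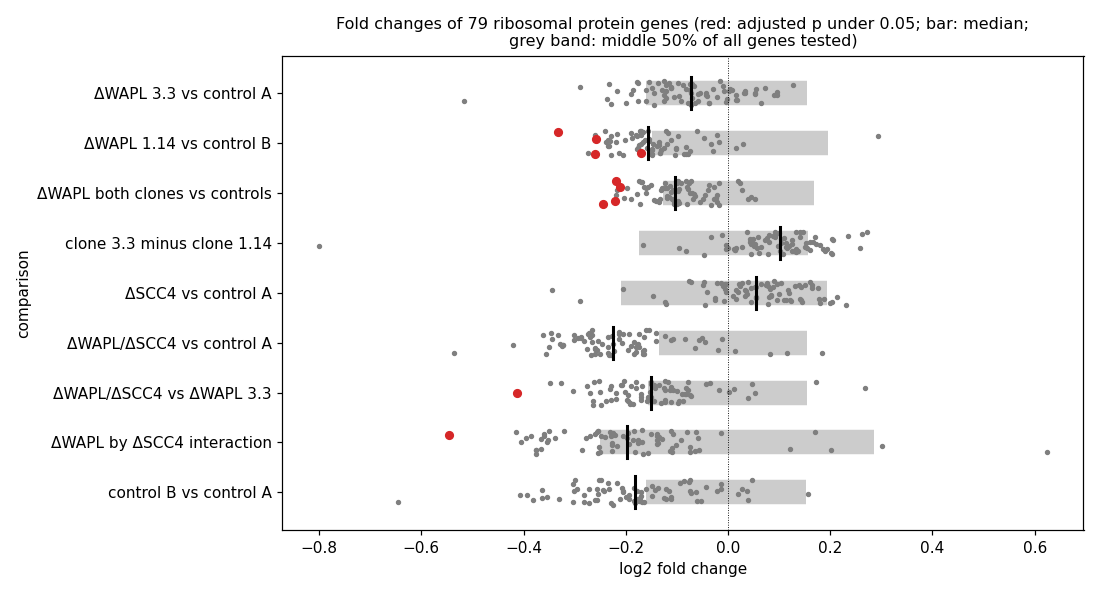
Log2 fold change of each of 79 ribosomal protein genes (dots) in each comparison. Red dots passed an adjusted p of 0.05, black bars are medians and grey bands the middle 50% of all genes tested. Medians lie between -0.23 and 0.10, and most genes of a comparison lie on 1 side of 0.

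Loss of SCC4, which impairs cohesin loading, was compared with control A. Without regard to replicate numbers no ribosomal protein gene passed, where 9.49% of 12503 genes did. None had an unadjusted p under 0.05, and DESeq2 called 0. The median was 0.05, with 57 of 79 above 0. With ΔSCC4 higher, the groups did not overlap for 1 gene, against 15.3% of all genes.

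Control A and ΔSCC4 libraries that carry 1 replicate number deviated alike from their group means (correlations 0.675, 0.115 and 0.615 over genes), so the pairs were also compared. The labels do not pair them, and the pairs were chosen from these same counts. Between control A and ΔWAPL/ΔSCC4 such a correlation was as low as -0.545. Of all genes, 46% were called with the block and 9.49% without it. The p-values of the block can therefore be too small and are given as description. With the replicate block, 21 ribosomal protein genes were called higher and 1 lower, against 22.3% of all genes called higher and 23.7% lower, so the share of members called higher was near that of all genes. In every one of the 3 pairs, 44 of 79 were higher in ΔSCC4, against 34.8% of all genes tested, and 6 were lower in every pair. The largest rises under the block were RPS28 (0.23, SE 0.06, edgeR adjusted p = 0.0108), RPL13A (0.22, SE 0.04, adjusted p = 0.00145), RPL36 (0.21), RPL28 (0.20) and RPS9 (0.19). RPL13A, a 60S protein also known from interferon-induced silencing of translation, had 2146, 1943 and 1608 CPM in control A and 2509, 2213 and 1944 in the ΔSCC4 samples of the same numbers. Each ΔSCC4 sample was above its own control, while the groups overlapped. RPL36 overlaps HSD11B1L on the same strand over 17.6% of its exons, and RPS28 had 76.8% unique windows.

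The stalk genes RPLP0 and RPLP1 rose under the block by 0.11 and 0.16 (adjusted p = 0.0361 and 0.0178), as did RPL3 (0.18), RPL39 (0.15) and RPL10 (0.14). RPL39L, the second copy of RPL39, was the member that fell, by 0.28 on the log2 scale (SE 0.08, edgeR adjusted p = 0.014 with the block). It had 35.04, 32 and 26.8 CPM in control A and 26.7, 26.1 and 24.6 in ΔSCC4, lower in all 3 pairs and without overlap between groups. Without the block its adjusted p was 0.271. With the offset for GC and length as well as the block, 41 members were higher and 1 lower, where 23.2% of all genes were higher and 23.5% lower. Without the third control A sample the median of the comparison was -0.02.

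**Figure D4:**
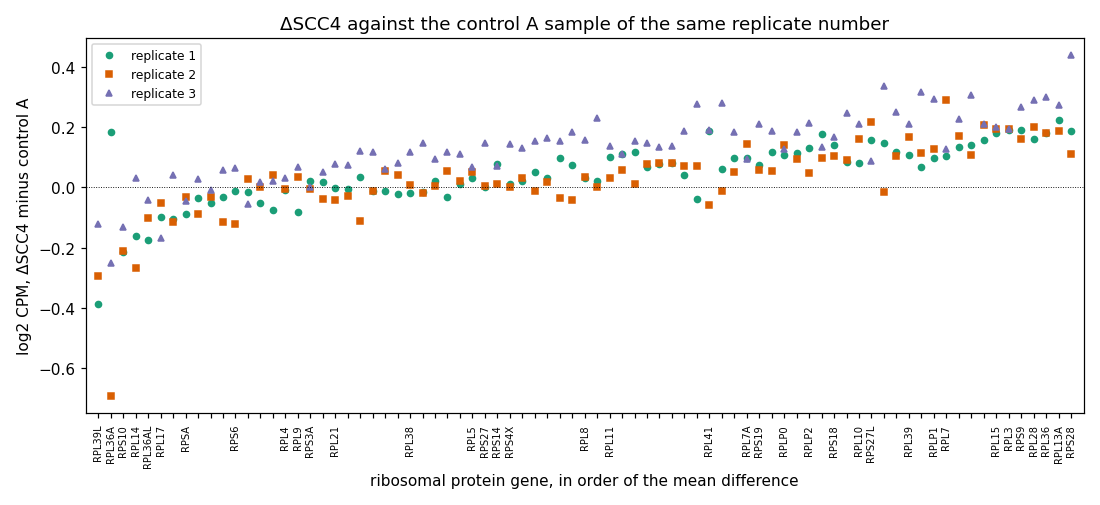
Difference in log2 CPM between each ΔSCC4 sample and the control A sample of the same replicate number, for 79 ribosomal protein genes ordered by their mean, with most of those named in the text labelled. The 3 symbols are the 3 pairs, and 44 genes lie above 0 in all 3, while RPL39L lies at the low end.

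The double knockout was compared with control A and with its parent clone 3.3. Against control A no ribosomal protein gene passed, where 7.95% of 12594 genes did, and DESeq2 called 0. An unadjusted p under 0.05 was found for 23 members, all lower, with no share of all genes counted beside it. The median log2 fold change was -0.23, with 4 of 79 above 0 and medians of -0.25 for 40S and -0.21 for 60S genes. Groups did not overlap, with the double knockout lower, for 24 of 79 genes, against 10.8% of all genes tested. The lowest adjusted p was 0.0963, for RPS27L. RPL10, which joins the large subunit late in its assembly, had 2288, 2115 and 1665 CPM in control A and 1591, 1360 and 1600 in ΔWAPL/ΔSCC4 (-0.42, SE 0.14, adjusted p = 0.113), and RPLP0 had 2100, 1926 and 1544 against 1564, 1290 and 1513 (-0.36, SE 0.14, adjusted p = 0.197). For RPL10 the groups did not overlap, and for RPLP0 the third control A sample was below the highest double knockout sample. Without the third control A sample 12 members were called lower, against 3.55% of all genes, and with the GC and length offset 7 were, against 7.7%.

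Against ΔWAPL 3.3, 1 of the 79 genes fell, RPS27L, where 4.55% of 12544 genes were called lower. Groups did not overlap, with the double knockout lower, for 37 of 79 genes, against 14.6% of all genes tested, and the median was -0.15. RPS27L is a paralog of RPS27 known as a target of p53. It had 83.3, 80.08 and 79.5 CPM in ΔWAPL 3.3 and 60.9, 61.5 and 59.95 in ΔWAPL/ΔSCC4 (log2 fold change -0.41, SE 0.11, edgeR adjusted p = 0.0236). Without the second ΔWAPL 3.3 sample, or the first or the third double knockout sample, it had the same direction and did not pass. Without the first ΔWAPL 3.3 sample 3 members were called lower, against 4.79% of all genes. In control A RPS27L had 75.3, 81.2 and 74.7 CPM and in ΔSCC4 84.01, 94.4 and 79.3. The double knockout was thus below all 9 samples of the other groups of set A. In control B it had 62.5, 57.9 and 58.6 CPM and in ΔWAPL 1.14 66.9, 60.7 and 55.7, at the level of the double knockout. RPS27 itself had 358.7, 338.4 and 330.1 CPM in ΔWAPL 3.3 and 308.9, 264.6 and 301.7 in ΔWAPL/ΔSCC4 (-0.23, SE 0.11, adjusted p = 0.204), and RPS19 was at -0.33 (adjusted p = 0.0709).

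RPS27L was also the member that passed the test of interaction, in which the effect of SCC4 loss in ΔWAPL 3.3 is compared with that in control cells, and 5.48% of 12817 genes were lower. The effect was -0.41 in ΔWAPL cells and 0.14 in control cells, and the interaction was -0.55 (SE 0.14, edgeR adjusted p = 0.0176). The median of the 79 genes was -0.20, with 5 above 0. RPS27L is on chr15:63418071-63450220 (GRCh37, minus strand, ENSG00000185088), and 91.8% of its windows occur once in the genome. With the GC and length offset 22 members passed, all lower, where 14.3% of all genes were lower, with RPS27L (-0.57), RPS15A (-0.46), RPL7 (-0.44) and RPL39 (-0.44) the lowest. Without the second ΔSCC4 or the second ΔWAPL 3.3 sample no member passed, and without the third ΔSCC4 sample 2 did. No share of all genes is given beside these counts.

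**Figure D5:**
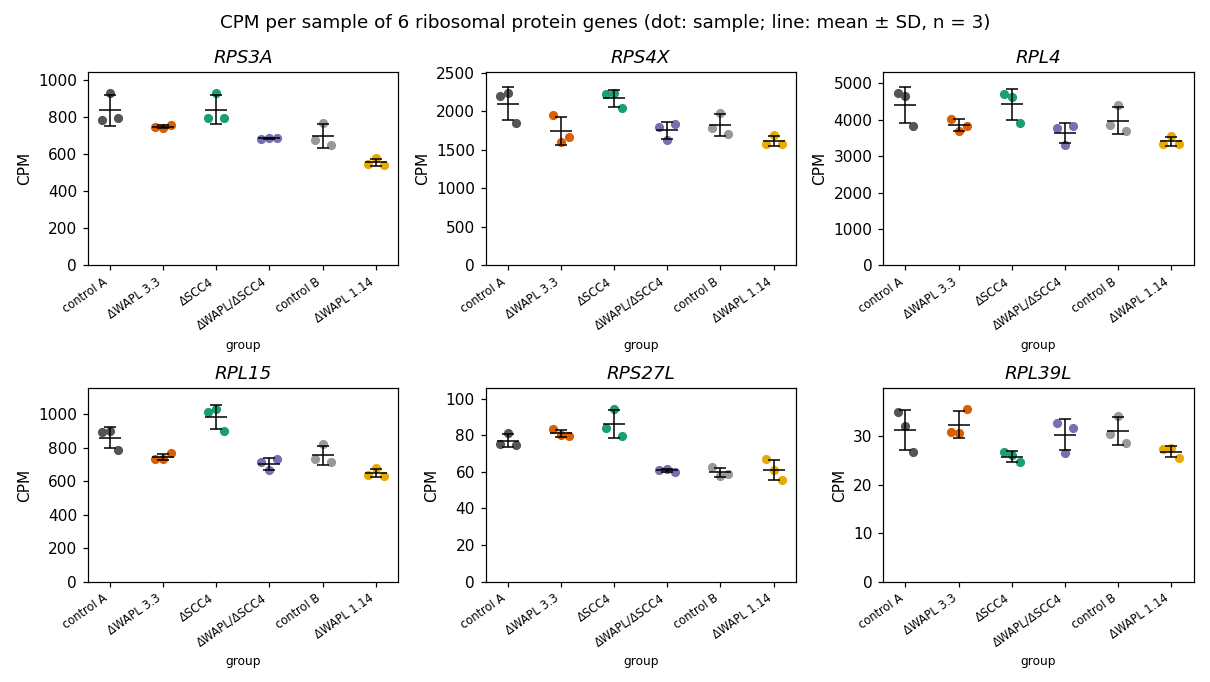
CPM per sample of RPS3A, RPS4X, RPL4, RPL15, RPS27L and RPL39L in the 6 groups, with the mean and SD (n = 3). RPS27L lies at 59.95 to 61.5 in ΔWAPL/ΔSCC4 and at 74.7 or more in every control A, ΔWAPL 3.3 and ΔSCC4 sample.

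The 2 sets of controls carry the same genotype. Between control B and control A no member passed, where 0.64% of 12509 genes did, and DESeq2 called 0. The median was -0.18, with 6 of 79 above 0, and 11 genes had an unadjusted p under 0.05. Groups did not overlap, with control B lower, for 9 of 79 genes, against 8.64% of all genes tested. RPL39 (-0.41, SE 0.14) and RPSA (-0.33, SE 0.16) were among the larger differences. Whether the set of samples plays a part in a knockout that was measured in 1 set was not tested.

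Medians were also taken for members with and without a pyrimidine run, and their difference was not tested. In ΔWAPL 3.3 these were -0.07 and -0.12. In ΔWAPL over both clones they were -0.10 for 50 genes with a run and -0.13 for 14 without, in ΔWAPL/ΔSCC4 against control A -0.21 and -0.26, and in ΔSCC4 0.04 and 0.10. In ΔWAPL 1.14 they were -0.15 and -0.18, and in the interaction of SCC4 with WAPL loss -0.18 and -0.24. Genes with a run had the larger change in ΔWAPL/ΔSCC4 against ΔWAPL 3.3 (-0.15 and -0.11). The same held between controls (-0.20 and -0.16) and between clones (0.10 and 0.09). Other mRNAs of the TOP class, such as those of elongation factors, had a median of -0.12 in ΔWAPL 1.14, with 1 of 17 called lower, PABPC1 (-0.22, SE 0.04, edgeR adjusted p = 0.0118). In ΔWAPL/ΔSCC4 against control A their median was -0.15 with none called. Ribosome biogenesis factors had a median of -0.13 in ΔWAPL 1.14, with 5 of 37 called lower, and of -0.01 in ΔWAPL/ΔSCC4. Initiation and termination factors had -0.07 in ΔWAPL 1.14 with 4 of 25 lower, EIF3I (-0.33) and EIF3K (-0.31) the largest. Mitochondrial ribosomal proteins, which build a separate ribosome, had -0.14 there with 7 of 74 lower. Of all genes tested in ΔWAPL 1.14, 11.4% were called lower, the share beside which the counts of these lists stand. In ΔWAPL/ΔSCC4 against control A the median of mitochondrial ribosomal proteins was -0.01, with 1 of 74 called, against 7.95% of all genes. This was MRPL12, which was higher (0.92, edgeR adjusted p = 0.0153).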

How the data were processed

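RNA of HAP1 cells was sequenced in 18 samples as strand-specific poly(A) libraries. The authors aligned reads with TopHat (2.1.1 in the methods; TopHat2 2.0.9 and hg19 in the submitters' notes) and deposited raw HTSeq counts per gene, without normalization and without reads of several places. DESeq2 was their test. Gene symbols came from the GRCh37 annotation (96.6% of identifiers). Counts were tested with edgeR 4.0.16 (R 4.3.3) by quasi-likelihood, TMM and filterByExpr, each comparison on its own groups, with Benjamini-Hochberg over all genes. SEs were derived from the F statistics. Log2 CPM has a prior count of 2. Fits were checked on simulated data. Which knockouts belong to set A or B followed file names. Samples were described as pairs only for control A and ΔSCC4, where same-numbered samples correlated above 0.1 in every pair. This choice was made from the same counts. Members and lists were chosen with earlier results of these data known. Named genes were the 5 largest called changes, 20 fixed members, extremes of level and 2 per other list. The member on chromosome Y was counted only, and some other members are not reported here by name. Alternatives were DESeq2 1.42.0, other scalings and filters, 1 fit over 18 samples, the replicate block, a GC and length offset (mgcv 1.9.3) and leaving out each replicate.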

Additional observations from a re-analysis of the deposited data

Results flagged for a closer look

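RPS27L was the one member for which the effect of SCC4 loss differed between ΔWAPL and control cells by a test of the difference itself. The interaction was -0.546 on the log2 scale (edgeR adjusted p = 0.0176), with the double knockout lower than ΔWAPL 3.3 in 3 of 3 samples and ΔSCC4 on average higher than control A. Control B and ΔWAPL 1.14 samples had 55.7 to 66.9 CPM, a range that holds the 3 samples of the double knockout.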

How the results depend on the processing

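Numbers of members called depended on the handling of GC and of replicates. With a GC and length offset, 1 member was called in ΔWAPL 3.3, 9 in ΔWAPL 1.14, 7 over both clones, 2 in ΔSCC4, 7 in ΔWAPL/ΔSCC4 against control A, 7 against ΔWAPL 3.3, 1 between controls and 22 in the interaction. Calls over all genes moved too, to 13.7% in ΔWAPL 3.3, 28.3% in ΔWAPL 1.14, 26.8% over both clones, 23.1% in ΔSCC4, 15.7% and 19.4% in ΔWAPL/ΔSCC4 against control A and ΔWAPL 3.3, 2.77% between controls and 27.2% in the interaction. With the replicate block, 28 members were called in ΔWAPL 1.14, 1 over both clones, 22 in ΔSCC4 and 2 in ΔWAPL/ΔSCC4 against ΔWAPL 3.3. Of all genes, 24%, 12%, 46% and 14.5% were called in these fits. With block and offset, 21 members were called in ΔWAPL 1.14, 42 in ΔSCC4, 1 and 6 in ΔWAPL/ΔSCC4 against control A and ΔWAPL 3.3, and 17 in the interaction. Apart from the interaction, 33.5%, 46.6%, 10.2% and 16.7% of all genes were called there. For the interaction no such share stands beside the 17, so that count says nothing of members in particular. Same-numbered samples correlated above 0.1 in every pair only between control A and ΔSCC4. With 1 fit over 18 samples, 1 was called in ΔWAPL 1.14, 7 in ΔWAPL/ΔSCC4 against control A, 3 against ΔWAPL 3.3, 4 between controls and 3 in the interaction. Apart from the interaction, 13.8%, 11.4%, 11.5% and 3.14% of all genes were called there. The 3 in the interaction have no such share beside them either. Without a filter 2 members were called in ΔWAPL 1.14, and 15.6% of all genes. Leaving out single replicates gave 0 to 48 in ΔWAPL 1.14, 1 to 21 over both clones, 0 to 12 and 0 to 3 in ΔWAPL/ΔSCC4 against control A and ΔWAPL 3.3, 0 to 2 in the interaction, and 0 elsewhere. In the fits that gave 48, 21, 12 and 3 members, 37.9%, 22.2%, 8.87% and 12% of all genes were called. No share is given for the fit that gave 2 in the interaction. The causes were not tested. DESeq2 and other scalings left counts within 1.5 times, and the median of ΔWAPL between clones turned to -0.03 with the offset. The median level per kb was 804 by mean transcript length and 200.5 by exon union. It was 784 for the 32 members with at least 80% of their 50-base windows found once in the genome.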

Other observations

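Genes near the ribosome that are no members moved with values of their own. RPL7L1, a paralog outside the cytoplasmic ribosome that takes part in ribosome assembly, had 396.4, 460.9 and 405.4 CPM in control A and 329.9, 227.5 and 235.7 in ΔWAPL 3.3 (log2 fold change -0.69, SE 0.15, edgeR adjusted p = 0.00846). In control B it had 429.7, 457 and 393.7 CPM and in ΔWAPL 1.14 406.9, 391.1 and 386.2, with overlap between the groups, and it was not called there. It had 351.3, 437.6 and 442.7 in ΔWAPL/ΔSCC4, above all 3 samples of ΔWAPL 3.3 (0.64, adjusted p = 0.00754). NOLC1, a nucleolar chaperone of ribosome biogenesis, had 477.9, 495.9 and 507.5 CPM in control A and 339.1, 367.8 and 386.2 in ΔSCC4 (-0.45, adjusted p = 0.0281), and 477.3, 544.1 and 537.2 in the double knockout. EIF3E, a subunit of initiation factor eIF3 with a TOP mRNA, had 524.8, 625 and 582.8 CPM in ΔWAPL 3.3 and 454.3, 437 and 447.1 in ΔWAPL/ΔSCC4 (-0.37, adjusted p = 0.0294). In control B it had 371.4, 291.2 and 423.7, below all samples of control A, which had 510.8, 502.3 and 468.9. The interactions of SCC4 with WAPL loss were 0.90 for RPL7L1, 0.77 for NOLC1 and -0.75 for EIF3E (edgeR adjusted p = 0.0126, 0.00582 and 0.00821).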
